A study of Mus musculus with 5 samples.

Results

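The mitosis genes are 35 mouse genes whose products carry a cell through division, chosen by their symbols among the 55397 genes of an RNA-seq table from liver tumours, and all 35 were found in it. The tumours were raised in female C57BL/6N mice that received, at 8 weeks of age, a hydrodynamic tail vein injection, a rapid large-volume injection that carries plasmids into hepatocytes. Every mouse received CMV-Sleeping Beauty transposase (4 µg), which inserts transposon plasmids into the genome, with pT3-EF1a-AKT and pT3-EF1a-NICD-IRES-rtTA (10 µg), so that the kinase AKT, the intracellular domain of Notch and the doxycycline-dependent activator rtTA were expressed from the EF1a promoter in all tumours. The Prox1 OE group (3 libraries) also received pT3-Tre-FLAG-mmProx1-IRES-GFP, from which doxycycline induces the transcription factor PROX1, and the Control group (2 libraries) received pT3-Tre-IRES-GFP, without Prox1. Both groups were given a diet with 6.25% doxycycline hyclate from day 21, for overexpression from week 3 to 4, and dissected tumours were taken after a week of overexpression or at the humane endpoint, with no statement of which applied to which tumour. Since whole pieces of tumour were sequenced, a smaller share of dividing cells and less RNA per dividing cell cannot be told apart. No label states that the libraries came from separate mice, so the p-values measure the spread between these samples only.

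Progression through mitosis depends on a set of genes that are transcribed late in the cell cycle and are nearly silent in resting hepatocytes. Cyclin B with CDK1 starts mitosis, kinesins and their partners build the spindle, kinetochores attach chromosomes to it, a checkpoint delays anaphase until all are attached, and the anaphase-promoting complex then marks cyclins and securin for destruction. Much of this set is controlled together: the MuvB core complex, with RB family proteins as DREAM, holds the genes silent in resting cells, and with B-MYB (Mybl2) and then FOXM1 it activates them, through a promoter element named CHR (cell cycle genes homology region) and nearby CCAAT boxes, which bind NF-Y.

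The mitosis genes were lower in the Prox1 OE tumours. In the fit of log2 normalised counts with limma, 33 of the 35 fell at a Benjamini-Hochberg adjusted p under 0.05 and 0 rose, against 16.2% of the 17105 genes tested that fell and 17.1% that rose. At an unadjusted p under 0.05 all 35 were lower and 0 higher. With edgeR 33 were called lower, against 15.7% of all genes tested, and with DESeq2 35, against 18.6%. Neither called any of them higher, while 18.0% of all genes tested rose with edgeR and 20.3% with DESeq2. The median log2 fold change (Prox1 OE over Control) over the 35 was -0.90, against -0.02 over all genes tested, and 9.13% of all genes tested lay below the median of the mitosis genes. Single values ran from -1.39 for Ect2 to -0.47 for Cenpa, with a median standard error of 0.20. The 2 genes that did not pass the threshold were Cdc25c and Ndc80. All 35 passed the filter on low values, and each was covered by 154 to 21163 reads in every library.

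The normalised counts of the 35 genes summed to 121459 and 81439 in Control replicates 1 and 2, and to 57812, 55615 and 43645 in Prox1 OE replicates 1 to 3. As a share of all normalised counts these sums were 0.281% and 0.178% in Control and 0.101%, 0.0967% and 0.0666% in Prox1 OE. Every Prox1 OE library was thus below both Control libraries, and the Control libraries were themselves far apart. For each of the 35 genes singly, all 3 Prox1 OE values were below both Control values, an arrangement that 32.4% of all genes tested shared.

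**Figure D1:**
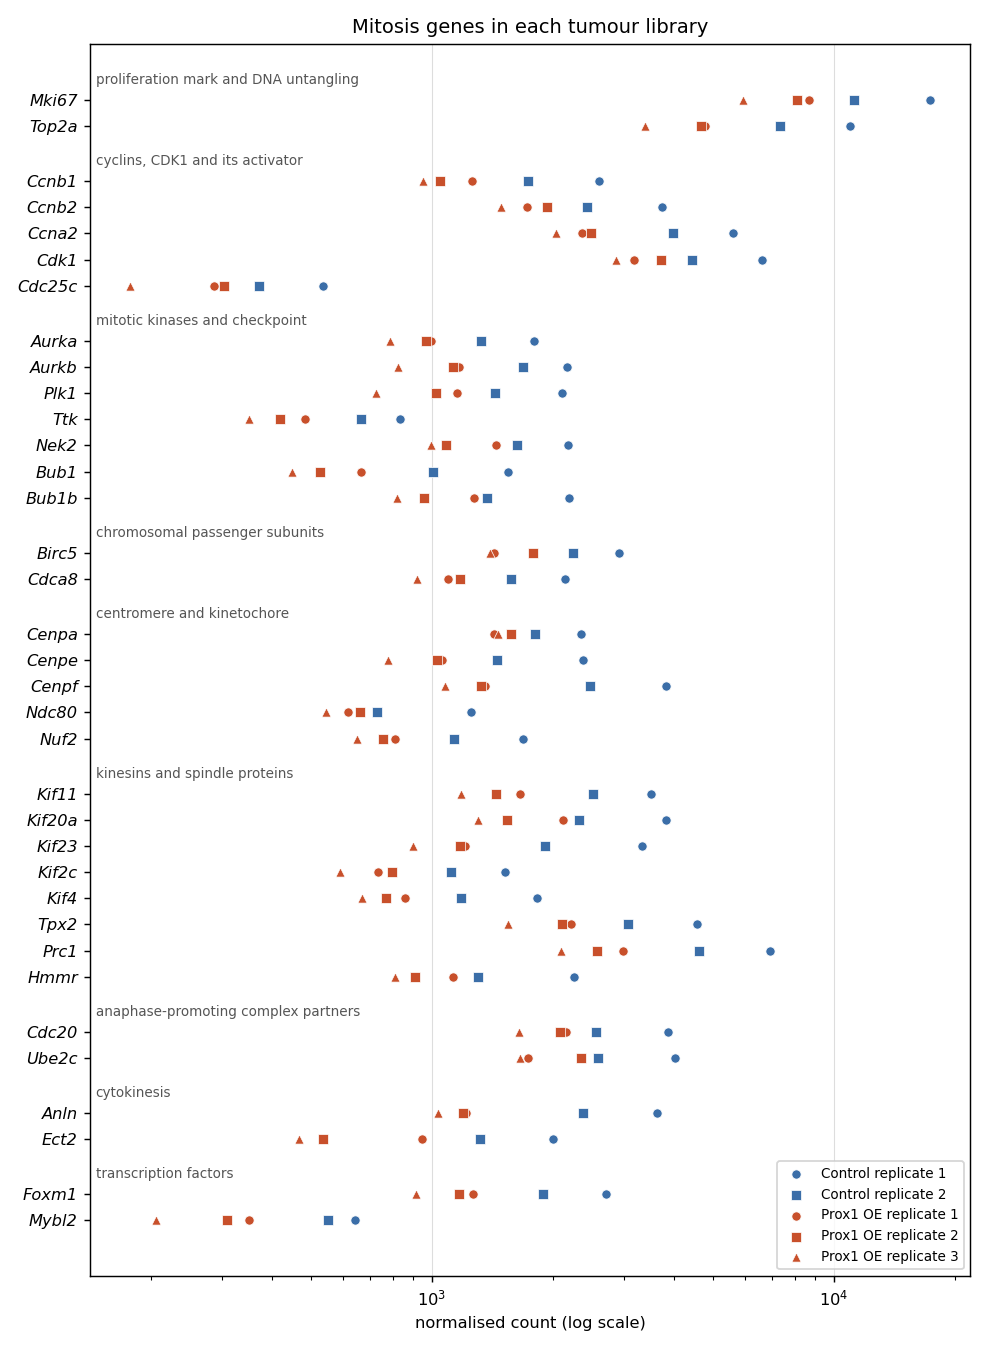
Normalised count (log axis) of each of the 35 mitosis genes, grouped by role, with 1 point per library (blue, Control; orange, Prox1 OE; the shape gives the replicate). In all 35 rows the 3 orange points lie to the left of both blue points, and Control replicate 1 lies to the right of Control replicate 2.

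The libraries stood apart from each other in the same way for nearly every mitosis gene. Control replicate 1 exceeded Control replicate 2 in 35 of 35 genes (46.5% of all genes tested), by a median of 0.57 on the log2 scale and a range of 0.22 to 0.80. Prox1 OE replicate 3 was the lowest of all 5 libraries in 34 of 35 (25.8% of all genes tested), with Cenpa as the exception. The distance from the highest to the lowest Prox1 OE library had a median of 0.47, from 0.14 for Cenpa to 1.02 for Ect2. Most calls were lost without Control replicate 1: in that fit 2 genes, Anln and Cenpf, passed the adjusted threshold in limma (2.79% of all genes tested fell in that fit) and 23 were below an unadjusted p of 0.05, the median log2 fold change was -0.63, and all 35 values stayed negative. Without Control replicate 2, 30 genes were called, against 4.88% of all genes tested, with a median of -1.19. Leaving out Prox1 OE replicate 2 or 3 left 23 calls each, against 10.2% and 11.3% of all genes tested, with medians of -0.96 and -0.76.

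Some facts of the libraries bear on all values. Depth was similar, at 48740863 to 56629477 reads assigned to genes. Prox1, the induced gene, had 4153 and 4664 normalised counts in Control and 48090, 11113 and 8231 in Prox1 OE, so that every Prox1 OE library was above both Control libraries, while the log2 fold change of 1.90 (SE 0.66) had a limma adjusted p of 0.061. The label calls the cells transformed hepatocytes. All 6 hepatocyte markers examined rose (17.1% of all genes tested did), with summed normalised counts of 732349 and 1194655 in Control and 2734201, 2469797 and 3831054 in Prox1 OE, and 5 of 6 cholangiocyte markers fell (16.2% of all genes tested did), with sums of 814244 and 745210 against 599005, 701156 and 518899, most of each from Spp1, which did not pass the threshold. Markers of other liver cells were also called: 3 of 5 for Kupffer cells (sums of 5332 and 8396 against 14536, 14400 and 23172), 3 of 5 for sinusoidal endothelium (4601 and 6381 against 8612, 9269 and 12542) and 4 of 6 for T and NK cells (997 and 750 against 1385, 1174 and 1332) rose. Most of each T and NK cell sum came from Ptprc, a gene of all leukocytes that did not pass the threshold. None of the markers was at 0 in any library. The share of reads from the top 10 genes was 9.371% and 10.06% in Control against 15.06%, 13.18% and 14.83% in Prox1 OE. Without Control replicate 1 the calls fell to 0 for hepatocyte markers and 0 for T and NK cell markers (3 and 4 were higher at an unadjusted p under 0.05 in limma), to 1 for Kupffer cells, 2 for endothelium and 3 for cholangiocytes, in a fit where 3.98% of all genes tested rose and 2.79% fell. Prox1 OE replicate 3, with the lowest mitosis gene sum, had the highest hepatocyte, Kupffer cell and endothelial sums, and Control replicate 1, with the highest mitosis gene sum, had the lowest of each. The T and NK cell sum did not follow this order, with its lowest value in Control replicate 2 and its highest in Prox1 OE replicate 1. Among the Prox1 OE libraries, Prox1 itself was lowest in replicate 3. The part of these cell types and of the larger share of the top 10 genes in the change of the mitosis genes was not tested.

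**Figure D2:**
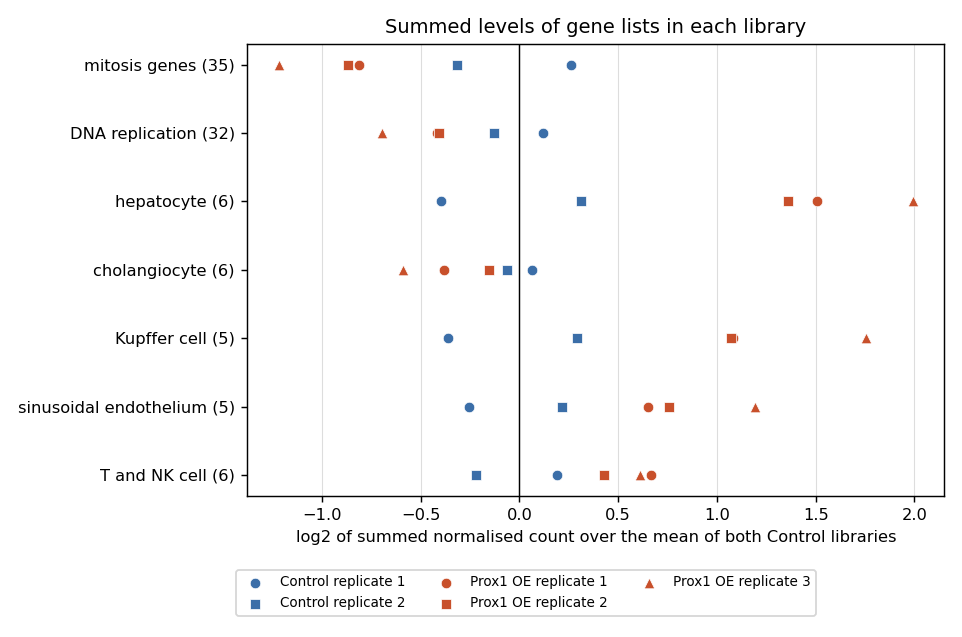
Summed normalised count of gene lists in each library, as log2 over the mean of both Control libraries (x axis), with the number of genes listed in brackets; blue, Control; orange, Prox1 OE; the shape gives the replicate. The mitosis genes and the hepatocyte markers run in opposite directions, with Prox1 OE replicate 3 at the outer end of both.

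The DNA before these genes was searched for the elements named above. Promoter windows from RefSeq (GRCm38.p6) were matched by symbol for 29 of the 35, and the 250 bases before the annotated start were searched on both strands for CHR letters (TTTGAA, with the variants that read TTTAAA and, as a further form, TTCGAA), for the CCAAT box of the same letters and for E2F sites (TTTGGCGC, TTTGCCGC, TTTCGCGC or TTTCCCGC). Shown here are 6 windows that hold both CHR and CCAAT letters, from a proliferation mark, the main mitotic topoisomerase, a cyclin, its kinase, a checkpoint protein and a kinetochore protein, all written 5′ to 3′ in the direction of the gene, with matches to both elements in capitals. The letters ATTGG mark a CCAAT box on the other strand, and a CHR match there can appear with the letters TTCAAA. They lie at chr7:135716380-135716629 (Mki67), chr11:99024190-99024439 (Top2a), chr9:70421555-70421804 (Ccnb2), chr10:69352913-69353162 (Cdk1) and chr1:189688087-189688336 (Cenpf), all on the minus strand, and at chr2:118597961-118598210 (Bub1b) on the plus strand.
Mki67: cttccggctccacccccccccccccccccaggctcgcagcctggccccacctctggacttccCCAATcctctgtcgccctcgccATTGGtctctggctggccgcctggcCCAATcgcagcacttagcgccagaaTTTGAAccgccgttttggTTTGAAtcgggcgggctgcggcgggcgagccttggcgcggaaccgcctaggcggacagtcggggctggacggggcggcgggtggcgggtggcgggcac
Top2a: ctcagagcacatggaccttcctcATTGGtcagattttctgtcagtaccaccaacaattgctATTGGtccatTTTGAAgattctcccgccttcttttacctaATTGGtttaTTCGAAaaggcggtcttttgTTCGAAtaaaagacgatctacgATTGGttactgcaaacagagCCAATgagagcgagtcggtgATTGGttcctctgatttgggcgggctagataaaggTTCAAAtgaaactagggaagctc
Ccnb2: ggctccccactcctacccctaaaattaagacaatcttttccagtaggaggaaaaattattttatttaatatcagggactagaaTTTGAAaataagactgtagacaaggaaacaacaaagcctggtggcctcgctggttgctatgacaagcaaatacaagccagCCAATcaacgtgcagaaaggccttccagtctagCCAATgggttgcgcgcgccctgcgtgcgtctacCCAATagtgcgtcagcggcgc
Cdk1: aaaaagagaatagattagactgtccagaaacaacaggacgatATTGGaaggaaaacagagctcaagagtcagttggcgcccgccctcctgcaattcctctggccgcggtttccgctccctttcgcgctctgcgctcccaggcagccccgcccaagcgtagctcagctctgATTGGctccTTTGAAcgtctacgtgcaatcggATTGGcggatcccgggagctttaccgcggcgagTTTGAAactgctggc
Bub1b: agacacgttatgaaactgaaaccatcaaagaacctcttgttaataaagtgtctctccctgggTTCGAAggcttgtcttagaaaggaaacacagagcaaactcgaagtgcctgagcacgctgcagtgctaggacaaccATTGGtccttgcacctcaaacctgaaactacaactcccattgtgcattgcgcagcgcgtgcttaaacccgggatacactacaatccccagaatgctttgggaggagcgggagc
Cenpf: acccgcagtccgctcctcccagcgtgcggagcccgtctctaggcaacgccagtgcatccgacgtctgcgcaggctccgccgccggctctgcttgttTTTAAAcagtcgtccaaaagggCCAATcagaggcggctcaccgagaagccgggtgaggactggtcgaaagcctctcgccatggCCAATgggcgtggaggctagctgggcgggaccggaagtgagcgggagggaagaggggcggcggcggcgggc

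In Mki67 the nearest CHR match began 98 bases before the start and 3 CCAAT matches lay further out. In Top2a there were 4 CHR and 6 CCAAT matches, the nearest CHR match 23 bases before the start. In Ccnb2 the 3 CCAAT matches began 87, 54 and 21 bases before the start, and the CHR match lay further out, at 167. The window of Cdk1 held CHR matches at 71 and 15 bases with CCAAT matches at 208, 80 and 48, and it was the only window among the 29 with an E2F match. Neither a match nor its absence shows whether a factor was bound in these tumours.

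CCAAT letters were found in 23 of the 29 windows (79.3%), against 34.5% of 27025 mouse promoter windows of the same length, and 16 windows (55.2%, against 10.5%) held at least 2. CHR letters were found in 15 (51.7%, against 26.5%), and both in 13 (44.8%, against 9.45%). No CHR match shared a base with a CCAAT match in these windows. E2F letters were in 1 (3.45%, against 1.91%). Within 100 bases of the start the shares were 72.4% against 19.6% for CCAAT and 31% against 10.3% for CHR. In 20 of the 29 windows the bases just after the start lay within an annotated transcript of the gene. Distances from the start are less certain in the others. In 7 windows (24.1%, against 1.57%) a pair of CCAAT matches began 30 to 35 bases apart, a spacing chosen after the positions were seen. Of the 29 windows, 11 had more than 30 of their bases inside an exon that GENCODE annotates for that or another gene, and 3 of these (Nek2, Kif4 and Prc1) lay wholly in such an exon. Among the other 18 windows, 13 held CCAAT letters (11 of them within 100 bases of the start), 10 CHR letters and 8 both. Anln, Ndc80, Nuf2 and Mybl2 had a window with no match to any of the letters, that of Ndc80 with 212 of its 250 bases in an exon. Of these, Anln, Nuf2 and Mybl2 fell and Ndc80 did not pass the threshold. The relation of matches to log2 fold changes was not tested.

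**Figure D3:**
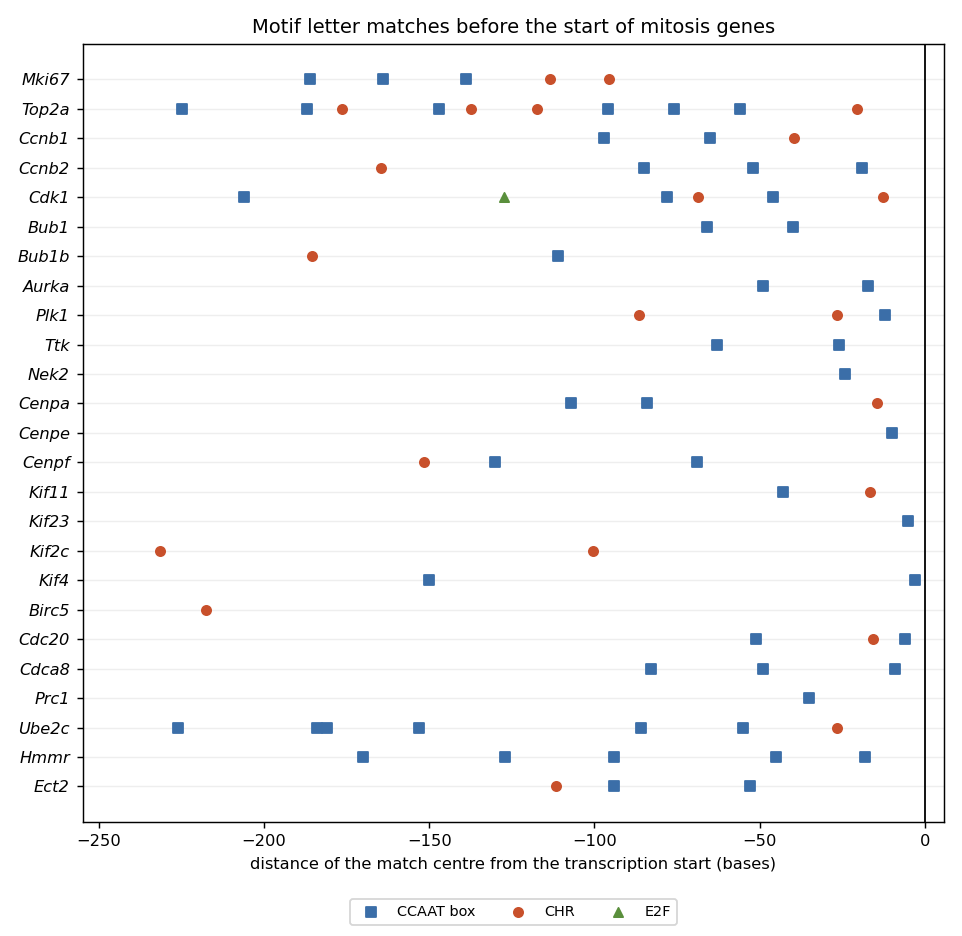
Distance of each motif match from the annotated start (x axis, bases; the start is at 0) in the 25 mitosis genes with at least 1 match; squares, CCAAT; circles, CHR; triangle, E2F. Most CCAAT matches crowd into the last 100 bases, where 72.4% of the 29 windows have at least 1.

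Mki67 encodes Ki-67, the coat of mitotic chromosomes that serves as the common mark of proliferating cells, and Top2a encodes the topoisomerase that untangles sister chromatids. Mki67 had 17387 and 11222 normalised counts in Control and 8655, 8101 and 5934 in Prox1 OE. Top2a had 10947 and 7348 against 4776, 4663 and 3390. For both, the highest Prox1 OE library was clearly under the lower Control library, and Prox1 OE replicate 3 was lowest. The log2 fold change of Mki67 was -0.90 (SE 0.23, limma adjusted p = 0.022) and that of Top2a -1.09 (SE 0.22, limma adjusted p = 0.0094). A short RNA gene, Gm23451, shares exon sequence with Top2a on the same strand, so reads there cannot be assigned with certainty.

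Among the genes that start mitosis, cyclins A and B, their kinase and its activating phosphatase, 4 of 5 fell. Ccna2 (cyclin A) had 5606 and 3985 normalised counts in Control and 2365, 2489 and 2033 in Prox1 OE. Ccnb1 (cyclin B1) had 2607 and 1736 against 1257, 1049 and 950, and Ccnb2 (cyclin B2), its close relative, 3735 and 2428 against 1728, 1930 and 1483. The groups did not overlap for any of the cyclins. Cyclin A changed by -1.05 on the log2 scale (SE 0.17, limma adjusted p = 0.005), Ccnb1 by -0.98 (SE 0.20, adjusted p = 0.011) and Ccnb2 by -0.82 (SE 0.20, adjusted p = 0.02). Processed pseudogenes of both B cyclins took at most 10 reads in any library. Cdk1, the kinase they activate, had 6614 and 4446 normalised counts in Control and 3178, 3720 and 2875 in Prox1 OE, a log2 fold change of -0.74 (SE 0.19, adjusted p = 0.023 in limma). Cdc25c, the phosphatase that activates CDK1, was the scarcest of the 35, with 536 and 371 against 287, 304 and 178. Its log2 fold change of -0.83 (95% interval -1.49 to -0.17) was near that of the cyclins, with a wider error (SE 0.28), and its adjusted p was 0.056 in limma, 0.061 in edgeR and 0.022 in DESeq2.

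All 7 mitotic kinases and checkpoint genes fell, with a median log2 fold change of -0.84. Aurka, which matures centrosomes, changed by -0.76, Aurkb, the kinase of the chromosomal passenger complex, by -0.89, and Plk1, which acts from mitotic entry to cytokinesis, by -0.87. The checkpoint kinases Ttk and Bub1 changed by -0.84 and -1.21, the checkpoint protein encoded by Bub1b by -0.80, and Nek2, which separates centrosomes, by -0.70. Limma adjusted p-values in this group ran from 0.0089 for Bub1 to 0.043 for Bub1b. Bub1, the most changed of them, had 1551 and 1005 normalised counts in Control and 666, 527 and 450 in Prox1 OE. Bub1b had 2190 and 1375 against 1274, 957 and 818. The groups stood well apart for Bub1, while for Bub1b the lower Control library exceeded the highest Prox1 OE library by only 1.08-fold. Birc5 (survivin) and Cdca8 (borealin), which hold Aurora B at the centromere, changed by -0.75 and -0.80 (limma adjusted p = 0.014 for each).

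The centromere and kinetochore genes varied widely, and 4 of 5 fell. Cenpf, a large protein of the outer kinetochore, had 3819 and 2478 normalised counts in Control and 1353, 1325 and 1079 in Prox1 OE. Cenpa, the histone that marks the centromere, had 2352 and 1806 against 1430, 1572 and 1459. Its Prox1 OE libraries were the closest together of any mitosis gene and near to the lower Control library. Cenpf changed by -1.30 (SE 0.20, limma adjusted p = 0.0043) and Cenpa by -0.47 (SE 0.14, adjusted p = 0.04), the smallest change among the 35. Cenpe, a kinesin of the kinetochore, changed by -0.97 (limma adjusted p = 0.018). NDC80 and NUF2 form one arm of the complex that grips microtubules. Nuf2 had 1686 and 1138 normalised counts in Control and 810, 758 and 652 in Prox1 OE, which came to -0.91 on the log2 scale (limma adjusted p = 0.012). Ndc80 had 1249 and 730 against 618, 664 and 544. Its Control libraries differed by 0.77 on the log2 scale, more than its log2 fold change of -0.65 (95% interval -1.20 to -0.11, limma adjusted p = 0.065, DESeq2 adjusted p = 0.023).

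All 8 kinesin and spindle genes fell, with a narrow range of log2 fold changes from -1.22 to -0.86 and a median of -0.95. Kif11, the motor that pushes spindle poles apart, had 3513 and 2523 normalised counts in Control and 1660, 1447 and 1185 in Prox1 OE. Kif23, a kinesin of the central spindle, had 3324 and 1911 against 1207, 1172 and 898. Prc1, which bundles microtubules between the separating chromosomes, had 6932 and 4623 against 2994, 2568 and 2090. The groups were separated in each, by at least 1.5-fold between the nearest libraries of Prc1 (1.54-fold), Kif11 (1.52-fold) and Kif23 (1.58-fold). Kif11 changed by -1.07 (limma adjusted p = 0.0068), Kif23 by -1.22 (adjusted p = 0.0099) and Prc1 by -1.17 (adjusted p = 0.007). Kif2c, which removes wrong attachments, changed by -0.90, the chromosome motor Kif4 by -0.95, and Tpx2, the activator of Aurora A on the spindle, by -0.95. Kif20a, needed for cytokinesis, and Hmmr, a spindle protein that is also a hyaluronan receptor, changed by -0.88 and -0.86, with limma adjusted p-values of 0.038 and 0.033 and with less distance between groups (1.09-fold and 1.15-fold between the nearest libraries).

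Cdc20, the activator of the anaphase-promoting complex that the checkpoint restrains, had 3872 and 2566 normalised counts in Control and 2155, 2081 and 1649 in Prox1 OE, and Ube2c, the ubiquitin-conjugating enzyme of that complex, had 4023 and 2590 against 1739, 2346 and 1656. The nearest libraries of the groups were 1.19-fold apart for Cdc20 and 1.1-fold apart for Ube2c. They changed by -0.69 (limma adjusted p = 0.034) and -0.77 (limma adjusted p = 0.035).

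The cytokinesis genes showed the largest falls. Anln (anillin), the scaffold of the contractile ring, had 3636 and 2381 normalised counts in Control and 1217, 1193 and 1037 in Prox1 OE. Ect2, the exchange factor that activates RhoA at the division plane, had 1999 and 1317 against 947, 535 and 466. Anln thus had Prox1 OE libraries close to each other and all under the lower Control library by at least 1.96-fold, the widest gap among the 35. In Ect2 replicate 1 of Prox1 OE was well above the other Prox1 OE libraries. The log2 fold changes were -1.36 for Anln (SE 0.19, limma adjusted p = 0.0033) and -1.39 for Ect2 (SE 0.32, limma adjusted p = 0.015). Anln and Cenpf were called under each of the 17 other settings tried.

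Both transcription factors of the set fell. Foxm1 had 2710 and 1889 normalised counts in Control and 1263, 1167 and 912 in Prox1 OE, and Mybl2 had 644 and 552 against 350, 310 and 206. Neither overlapped between groups, and for Mybl2 the Control libraries were the closest of any mitosis gene, at 0.22 on the log2 scale. Foxm1 changed by -1.03 (SE 0.20, limma adjusted p = 0.0088) and Mybl2 by -1.08 (SE 0.24, limma adjusted p = 0.015). Exons of Gm44596 and Tex52 share sequence with Foxm1 on the same strand.

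**Figure D4:**
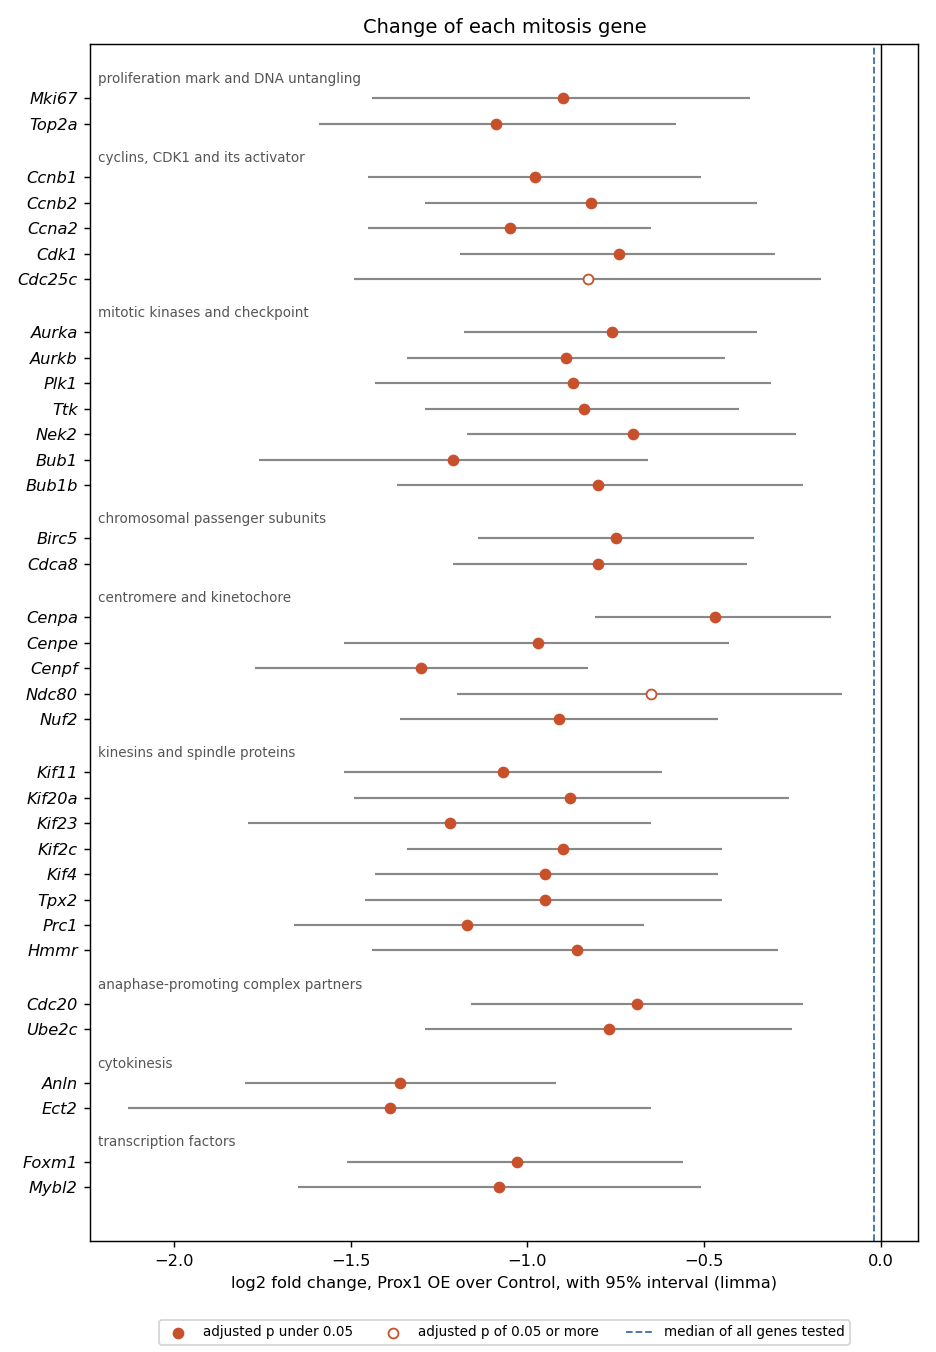
Log2 fold change (Prox1 OE over Control, x axis) of each mitosis gene with its 95% interval from limma, grouped by role; filled points passed an adjusted p of 0.05 and open points (Cdc25c, Ndc80) did not. All 35 intervals lie below 0, the medians of the roles lie between -1.38 and -0.73, and the dashed line marks the median of all genes tested (-0.02).

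Per kilobase of exon, the most abundant mitosis genes in Control were Ccnb2 (mean of 2013 normalised counts per kilobase), Cdc20 (1723), Mki67 (1422) and Ube2c (1272), and the scarcest was Cdc25c (92.2). In Prox1 OE the same quantity was 1119 for Ccnb2, 1050 for Cdc20, 752 for Mki67, 736 for Ube2c and 52.2 for Cdc25c. Mki67 stood highest by normalised count without regard to length, and its exons cover 10.1 kilobases against 1.53 for Ccnb2.

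Each gene was also set against the mean log2 level of the 35 in the same library, as a description with no test. On this scale Anln stood at 0.44 and 0.39 in Control and at -0.09, -0.03 and 0.09 in Prox1 OE, and Cenpa at -0.19 and -0.01 against 0.14, 0.36 and 0.59. Anln was thus lower and Cenpa higher in all Prox1 OE libraries relative to the mean of the set, while Mki67 and most of the other genes overlapped between the groups. Longer genes tended to change more: Spearman's rho between log2 fold change and exon length was -0.47 over the 35 genes and -0.28 over 17094 genes tested, values across genes of the same 5 libraries. The 17 genes above the median exon length of 4.92 kilobases had a median log2 fold change of -0.97 and the other 18 a median of -0.86. After a correction of every library for exon length, chosen after the data were seen, 31 genes were called lower, against 14.4% of all genes, and the median was -0.88. Mki67, Cenpa, Cdc25c and Ndc80 did not pass under it.

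The wider mitotic machinery moved the same way, with exceptions. Of 78 further mitosis genes, all tested, 50 fell (64.1%, beside 16.2% of all genes tested), 2 rose (2.56%, beside 17.1%) and 26 did not pass the threshold, with a median log2 fold change of -0.75. The largest falls were those of Kif14, a kinesin of the central spindle (-1.44, limma adjusted p = 0.0079), Knl1, the kinetochore scaffold (-1.36, 0.011), Cep55, which acts at abscission (-1.17, 0.011), and the kinase Melk (-1.15, 0.011). By function, 16 of 18 further kinesin and spindle genes fell, 7 of 8 condensin genes, 5 of 7 cytokinesis genes and 10 of 12 cyclin partners and kinases. Of the others, 3 of 7 checkpoint and anaphase genes fell and 1 rose, and 9 of 26 kinetochore and centromere genes fell and 1 rose. Without Control replicate 1, 0 of the 78 passed the adjusted limma threshold in either direction, 24 were lower and 2 higher at an unadjusted p under 0.05, and the median was -0.50, and without Prox1 OE replicate 2 or 3 the numbers that fell were 22 and 31, in fits where 10.2% and 11.3% of all genes tested fell.

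The 2 genes that rose were Pttg1 and Zwint, singled out after their values were seen. Pttg1 (securin), the inhibitor of separase, had 1375 and 1399 normalised counts in Control and 1911, 2018 and 2420 in Prox1 OE. Zwint, a kinetochore protein that binds KNL1, had 4547 and 4526 against 6840, 5296 and 6178. In both genes every Prox1 OE library was above both Control libraries, and the Control libraries were nearly equal. Pttg1 changed by 0.60 (SE 0.14, limma adjusted p = 0.015) and Zwint by 0.42 (SE 0.13, limma adjusted p = 0.048). Neither was called when libraries were scaled by total count (log2 fold changes of 0.17 and -0.01) or when Control replicate 1 or Control replicate 2 was left out. Espl1 (separase), the protease that securin holds, had 1015 and 790 normalised counts against 588, 589 and 383 and changed by -0.81 (limma adjusted p = 0.031).

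Partners of the mitosis genes in the same complexes were also chosen after their values were seen. Spc24 and Spc25 form the other arm of the NDC80 complex. Spc24 had 1587 and 1115 normalised counts in Control and 1660, 1841 and 2038 in Prox1 OE (log2 fold change 0.47, limma adjusted p = 0.077), and Spc25 had 2159 and 1540 against 1752, 1888 and 1575 (-0.07, limma adjusted p = 0.76), so neither passed, whereas Nuf2 fell. That the members of this complex differ in their change was not tested. Incenp, the scaffold of the passenger complex, changed by -0.69 (limma adjusted p = 0.02) and Racgap1, the partner of Kif23, by -0.94 (limma adjusted p = 0.01). Ncaph2, a subunit of condensin, differed by -0.09 on the log2 scale (limma adjusted p = 0.55) and was the gene of that group that did not fall.

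The subunits of the anaphase-promoting complex were examined beside its partners Cdc20 and Ube2c. Of 15 genes, its subunits and the activator Fzr1, 0 passed the adjusted limma threshold. At an unadjusted p under 0.05, 2 were higher and 1 lower, and edgeR called 1 higher and DESeq2 2 higher. Their median log2 fold change was -0.08, the widest values being 0.59 for Anapc13 (adjusted p = 0.057) and -0.42 for Anapc1 (adjusted p = 0.064). Among 11 genes of the switch that sets CDK1 activity at entry and exit, 4 fell: the phosphatases Cdc25b (-0.97, limma adjusted p = 0.012) and Cdc25a (-0.76, 0.015), the opposing kinase Wee1 (-0.87, 0.037) and Ppp2r2a, a regulatory subunit of the phosphatase that reverses CDK1 (-0.44, 0.018). Of 23 genes of the MuvB, RB and E2F machinery, 5 fell and 1 rose (21.7% and 4.35%, beside 16.2% and 17.1% of all genes tested), with a median of -0.32, so the share that fell was near that of all genes. Those that fell were E2f7 (-1.01, limma adjusted p = 0.018), Rbl1, which encodes p107 (-0.90, 0.011), Nfya, a subunit of NF-Y (-0.74, 0.013), Tfdp2 (-0.66, 0.013) and E2f5 (-0.51, 0.028), and E2f2 rose (0.56, 0.048), all named for their calls. Without Control replicate 1, 0 of these 23 genes and 0 of the 11 switch genes passed the adjusted limma threshold (4 and 3 were lower and 1 and 0 higher at an unadjusted p under 0.05). Replication genes act earlier in the cycle, and among them 15 of 32 fell and 0 rose (0 higher also at an unadjusted p under 0.05, with edgeR and with DESeq2), with a median of -0.47 (its difference from the median of the mitosis genes was not tested). Without Control replicate 1, 0 of the 32 passed the adjusted limma threshold, with 6 lower and 0 higher at an unadjusted p under 0.05. The widest changes were those of the polymerase subunit Pola1 (-1.13, limma adjusted p = 0.0053), Orc1 of the origin recognition complex (-0.99, 0.033), the helicase subunit Mcm4 (-0.90, 0.0045) and Uhrf1, which maintains DNA methylation (-0.89, 0.0086).

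**Figure D5:**
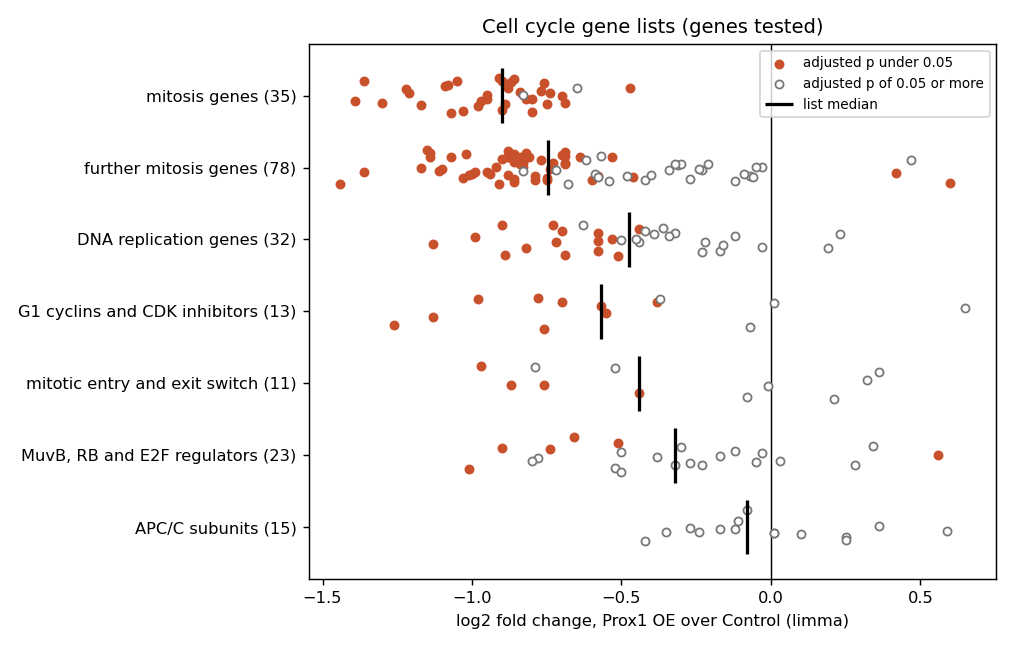
Log2 fold change (Prox1 OE over Control, x axis) of every gene tested in 7 cell cycle lists, with the number of genes in brackets; filled points passed a limma adjusted p of 0.05 and the black bar is the list median. The medians run from -0.90 for the mitosis genes to -0.08 for the anaphase-promoting complex, and the filled points above 0 are Pttg1, Zwint and E2f2.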

How the data were processed

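Bulk RNA-seq libraries from 2 Control and 3 Prox1 OE tumours were prepared with a protocol that keeps the strand, sequenced as paired reads of 100 bases, aligned with STAR to mm10 and normalised with DESeq2 by the authors; the counting tool and its strand setting are not given in the sources used here. The deposited signal values are gene counts divided by DESeq2 size factors, and 100% of them came back as whole reads (tolerance 1e-06), giving 48740863 to 56629477 reads per library. A second deposited table held the authors' own comparison (mean levels, fold changes and p-values) and was not used. Symbols came from GENCODE M21 for 99.5% of identifiers (55137 of 55397).

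The 17105 genes that averaged 10 or more normalised counts were tested, two-sided, with limma 3.58.1 on log2(normalised count + 1), with a mean-variance trend and Benjamini-Hochberg adjustment over all of them, so that fold changes of low genes are understated. Under an exact permutation test, 2 against 3 libraries cannot give a p below 0.1. In simulated counts with 200 of 17105 genes changed, the limma test recovered 47% of 2-fold and 85% of 4-fold changes, with 9 false calls. The adjusted threshold depends on the share of genes that change, and 33.3% of genes tested were called in the tumours. These percentages therefore do not give the power of the fit reported here. Counts of any pair of libraries differed by more than counting error allows (chi-square of 40.3 or more for each degree of freedom).

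All 35 mitosis genes are named; of the other lists the rule took up to 4 genes with the widest change, and any gene of lists of 12 or fewer, with others said to be chosen after their values. The mitosis genes and all lists were chosen with earlier results of these data known. Promoters shown were the first 6 with both motifs and with at most 30 bases inside an annotated exon. Alternatives were other scalings, pseudocounts of 0.1 and 10, no filter or a filter at 50, a limma fit with no trend, edgeR 4.0.16 and DESeq2 1.42.0 on the recovered reads, a replicate block, each library left out, and an added exon length correction. Of the 35, 10 share exon sequence with a gene on the other strand.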

Additional observations from a re-analysis of the deposited data

How the results depend on the processing

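The direction of all 35 mitosis genes stayed lower under each of the 17 alternatives. Of 595 gene values under alternatives, 504 kept their side of the threshold, 86 lost it and 5 gained it. The number of mitosis genes called lower was 33 with TMM factors (15.4% of all genes tested were lower) and 33 with edgeR (15.7%). It was 35 with DESeq2 (18.6%), 28 with upper-quartile factors (13.1%), 25 with no filter on low values (7.95%) and 20 in limma without the trend (11.3%).

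With total count as library size the median of all genes moved to -0.45, 1472 genes were called higher and 6856 lower (2933 and 2769 as reported), the mitosis genes had a median of -1.33, and the further mitosis genes had 0 called higher and a median of -1.18; Anapc16 turned to -0.07 and Zwint to -0.01. The further mitosis genes had 1 called higher with no filter on low values (8.41% of all genes tested), with limma without the trend (13.4%) and with the replicate block (15.9%). Without the trend 23 of them were called lower (11.3% of all genes tested). With upper-quartile factors Spc25 turned to 0.00 and Cdkn1a to 0.01.

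Leaving out each library in turn gave 681 to 3738 genes called higher and 477 to 3753 lower. It left 2 to 31 mitosis genes lower, with medians of -1.19 to -0.63, and 0 to 2 further mitosis genes higher and 0 to 53 lower, with medians of -0.99 to -0.50; the lowest counts came without Control replicate 1, where the remaining Control library is assumed to vary like the Prox1 OE libraries. Over the same fits Spc25 ran from -0.32 to 0.17 and Cdkn1a from -0.23 to 0.04, so that both changed sign. The causes were not tested.

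Replicate numbers are shared by the groups, but no label ties them: deviations from the group means correlated at 0.137 and 0.0156 for replicates 1 and 2. With a replicate block, in which Prox1 OE replicate 3 has no counterpart and drops out, 32 mitosis genes were called lower (14.9% of all genes tested). Their median was -0.76, and Cenpa was lost.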

Other observations

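Cyclins and kinases of G1 and the inhibitors that oppose them were examined together. Of these 13 genes, 9 fell and 0 rose in limma (16.2% and 17.1% of all genes tested fell and rose), with a median log2 fold change of -0.57. At an unadjusted p under 0.05 there were 0 higher as well, and edgeR called 7 lower and DESeq2 9 lower. Most of the limma calls were lost without Control replicate 1, a fit that keeps only Control replicate 2 in that group. Ccnd1 (cyclin D1) had 33204 and 36614 normalised counts in Control and 22458, 23976 and 18360 in Prox1 OE, which came to -0.70 on the log2 scale (limma adjusted p = 0.016). Ccnd2 (cyclin D2) had 1928 and 1838 against 893, 1036 and 933, or -0.98 on the log2 scale (limma adjusted p = 0.0028). For both, all 3 Prox1 OE libraries were below both Control libraries.

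Of 7 inhibitors of cyclin-dependent kinases, 4 fell. Cdkn2b changed by -1.26 (limma adjusted p = 0.0066), Cdkn2a by -1.13 (0.049), Cdkn1b, which encodes p27, by -0.78 (0.0033) and Cdkn2c by -0.76 (0.015). Cdkn1b had 2484 and 2434 normalised counts in Control and 1399, 1417 and 1480 in Prox1 OE. Cdkn1a, which encodes p21, had 10169 and 11677 against 8997, 9649 and 13009, so that its groups overlapped (log2 fold change -0.07, limma adjusted p = 0.8). Cdkn2d (-0.37, limma adjusted p = 0.19) and Cdkn1c (0.65, limma adjusted p = 0.17), the latter in the opposite direction, did not pass either.

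The marker lists of the remaining cell types are short, and of all genes tested 16.2% fell and 17.1% rose. Among recruited myeloid markers 1 of 5 fell and 0 rose in limma, edgeR and DESeq2 (0 higher at an unadjusted p under 0.05), among stellate cell and fibroblast markers 2 of 5 rose and 1 fell, among B and plasma cell markers 1 of 4 tested rose, and among erythroid markers 2 of 4 tested rose. DESeq2 called 4 erythroid markers higher. Without Control replicate 1 limma called 1 erythroid marker higher, 1 stellate cell and fibroblast marker higher and 1 lower, and 0 markers of B and plasma cells (1 higher at an unadjusted p under 0.05) or of myeloid cells (0 at an unadjusted p under 0.05). Their summed normalised counts in the Control and then the Prox1 OE libraries were 1913 and 1379 against 1784, 1709 and 1281 for myeloid cells, and 39823 and 38655 against 23854, 25358 and 21903 for stellate cells and fibroblasts. The latter sums were carried by Col1a1, the marker that fell (31809 and 29586 against 13386, 15445 and 10742), while the median log2 fold change of that list was 0.27. In 3 of its 5 markers all Prox1 OE libraries were above both Control libraries, an arrangement that 30.9% of all genes tested shared. For B and plasma cells they were 135 and 121 against 224, 205 and 252, and for erythroid cells 2452 and 2956 against 5727, 3945 and 7585.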
